A study of Rattus norvegicus with 311 samples.

Results

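Aminoacyl-tRNA synthetases were followed in rat liver cell cultures through 33 probes of 31 genes, out of 22253 probes of 21143 gene symbols in the whole count table. Members were taken by probe symbol: a 1-letter amino acid code followed by "ars", or Eprs, Farsa or Farsb, with an optional 1, 2 or l at the end. Symbols ending in 2 stand for the mitochondrial enzymes, and the others were taken as cytosolic. This gave 17 cytosolic probes of 16 genes and 16 mitochondrial probes of 15 genes. Vars and Nars2 have 2 probes each, named here by their probe numbers 42538 and 49844 for Vars, and 41901 and 47447 for Nars2. Gars was not analysed here, because no row of that name was given.

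Each synthetase joins an amino acid to its matching tRNA, and the ribosome then uses the charged tRNA to read the codon. Most amino acids have a cytosolic enzyme and a separate nuclear-encoded mitochondrial one, while Kars, the lysyl-tRNA synthetase, serves both places from a single gene. Several cytosolic enzymes sit together in the multisynthetase complex, which Eprs, the joined glutamyl- and prolyl-tRNA synthetase, helps to build. In many cell types uncharged tRNA activates the kinase GCN2, which raises the transcription factor ATF4, and cytosolic synthetase genes are among the known ATF4 targets. Wars, the tryptophanyl-tRNA synthetase, is also known as a gene induced by interferon.

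The study used primary hepatocytes of male Sprague Dawley rats on collagen-coated plates, alone (monoculture, 156 libraries) or with non-parenchymal liver cells (co-culture, 155 libraries). Cells were exposed for 24 h before sampling on day 1, 3 or 7 after plating, to an untreated vehicle control or to 1 of 4 compounds at 3 doses. Gemfibrozil, a fibrate drug, was given at 10, 100 and 1000 µM, and GW7647, an agonist of the nuclear receptor PPAR-alpha, at 0.01, 0.1 and 1 µM. Ketoconazole, an azole antifungal, was given at 1, 10 and 30 µM, and phenobarbital, a barbiturate, at 0.1, 1 and 10 mM. RNA was read by TempO-Seq, in which a pair of detector oligonucleotides is ligated on the target transcript and counted by sequencing. The 78 groups hold 3 libraries in 7 cases, 4 in 65 and 5 in 6, and a library is named here by its plate (1, 3, 5, 7 or 9).

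The shallowest of the 311 libraries had 412414 counts, the median one 6054414 and the deepest 12272575, and the shallowest was the only one below the depth limit used as an alternative (monoculture, ketoconazole 30 µM, day 7, plate 1). Between 5846 and 15538 probes had a count in a library, with a median of 12801. Plate 9 holds 9 day 3 libraries of gemfibrozil or GW7647 and no vehicle, and it stands apart for some members, as shown further on. In monoculture, 33 libraries described as phenobarbital carry ketoconazole as their compound label. They were taken as phenobarbital, and the co-culture values, free of that conflict, are given beside the phenobarbital results. In co-culture on day 3, 3 libraries described as 0.1 µM GW7647 carry 1 µM as their dose label. They were taken as 0.1 µM, and that comparison had 0 synthetase calls with or without them. In vehicle wells the summed level of 11 hepatocyte marker probes lay between 39300 and 92600 CPM (the usual unit for counts scaled to a common library size) on day 1, 33000 and 69500 on day 3, and 4020 and 18800 on day 7. The summed level of 11 stellate and mesenchymal probes was between 107 and 519 CPM on day 1 and between 1580 and 23000 on day 7. For 12 macrophage probes it was between 115 and 237 CPM and between 317 and 1850 CPM. For 11 endothelial probes it was between 30.3 and 130 CPM and between 20.4 and 332 CPM. On day 7 the macrophage sums of monoculture (317 to 709 CPM) lay below those of co-culture (908 to 1850 CPM), and the endothelial and stellate sums overlapped. The 9 lymphocyte probes summed to at most 5.47, 6.52 and 6.25 CPM on days 1, 3 and 7. Of these, Cd79a and Ms4a1 were at 0 in every vehicle well. CPM is a share of a library's counts and not an amount per well. A lower share can come from fewer cells of a type, from less RNA per cell or from more RNA of other cells. These cannot be told apart here.

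Promoter windows from RefSeq (GRCr8, 250 bases before to 50 after the start site) were matched for 28 of the 31 genes. Dars and Rars were the cytosolic genes without one. The letters TGATGNAA, the core of the amino acid response element that ATF4 binds, were searched on both strands. They occurred in 5 of 14 cytosolic windows (35.7%), in 0 of 14 mitochondrial windows and in 1332 of all 33469 windows (3.98%). The carriers were Aars, Cars, Iars, Mars and Tars. Each of them held the match on the opposite strand, where it reads TTGCATCA along the gene, and Aars held a further match. The 4 carriers with the smallest p-values at the top doses are shown, because the letters set this group of cytosolic genes beside the others. Capitals mark the matches, each stretch is written 5′ to 3′ on the strand of the gene, and positions are counted from the start site.
Aars (alanyl-tRNA synthetase), chr19:55908330-55908511, plus strand, matches from -112 to -105 and from 10 to 17: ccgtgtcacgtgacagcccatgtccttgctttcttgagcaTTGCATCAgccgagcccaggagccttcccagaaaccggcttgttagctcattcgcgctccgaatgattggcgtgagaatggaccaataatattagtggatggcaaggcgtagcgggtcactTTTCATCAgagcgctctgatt
Cars (cysteinyl-tRNA synthetase), chr1:208225340-208225392, minus strand, match from 18 to 25: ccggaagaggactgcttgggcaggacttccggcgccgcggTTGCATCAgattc
Mars (methionyl-tRNA synthetase), chr7:65023724-65023810, minus strand, match from -17 to -10: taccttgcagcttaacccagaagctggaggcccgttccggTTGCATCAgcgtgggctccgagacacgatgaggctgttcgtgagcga
Iars (isoleucyl-tRNA synthetase), chr17:15193629-15193716, minus strand, match from -24 to -17: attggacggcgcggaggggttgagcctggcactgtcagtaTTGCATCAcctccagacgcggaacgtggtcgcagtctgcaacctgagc

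Of the other letters searched on both strands, the NRF1 core GCGCATGC was found in 0 of 14 cytosolic and 2 of 14 mitochondrial windows (14.3%, Vars2 and Wars2), against 2.47% of all windows. The ETS letters CCGGAAGT were found in 5 cytosolic windows (35.7%: Cars, Farsa, Lars, Mars and Wars) and in 3 mitochondrial windows (21.4%: Hars2, Pars2 and Rars2), against 3.81% of all windows. In Wars2 the matches on the 2 strands overlap. The name Vars2 is ambiguous in RefSeq, where it is also a synonym of the cytosolic gene, and it was kept with the mitochondrial class by its symbol. A match is a description of the letters and shows no binding.

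All 17 cytosolic and 15 of the 16 mitochondrial probes passed the filter on low counts on each day, and Tars2, at 0 in 300 of 311 libraries, did not. Counts were scaled to CPM, and levels of different probes are not set against each other, since a probe's yield differs from gene to gene. The 2 Vars probes show this: the medians over 311 libraries were 0.387 CPM for probe 42538 and 108 CPM for probe 49844. The Nars2 probes had medians of 0.302 and 12.4 CPM. Among the other mitochondrial members, Hars2 was at 0 in 69 libraries, whereas Iars2 was detected in all 311. Among the cytosolic members, Mars was at 0 in 67 libraries and Cars in 29, and apart from Vars probe 42538 the other cytosolic probes had a count in every library.

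The first comparison asks which synthetases changed at the top dose of each compound, averaged over both cultures, on each day. Over the 12 comparisons, the cytosolic probes were called higher in 29 of 204 tests (14.2%) and lower in 0, and the mitochondrial probes higher in 4 of 180 tests (2.22%) and lower in 1 (0.556%). Over all probes, 4.11% of tests were called higher and 3.64% lower. A call is an adjusted p under 0.05 in edgeR's quasi-likelihood test, with Benjamini-Hochberg adjustment over all probes tested. Comparisons of a day share their vehicle wells, so these tests are not independent of each other. Wars was called in 8 of 12 comparisons, Eprs and Farsb in 6 each and Sars in 3, which makes 23 of the 29 cytosolic calls. Aars and Farsa were called 2 times each and Cars and Mars once each, and the other 9 cytosolic probes in none.

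**Figure D1:**
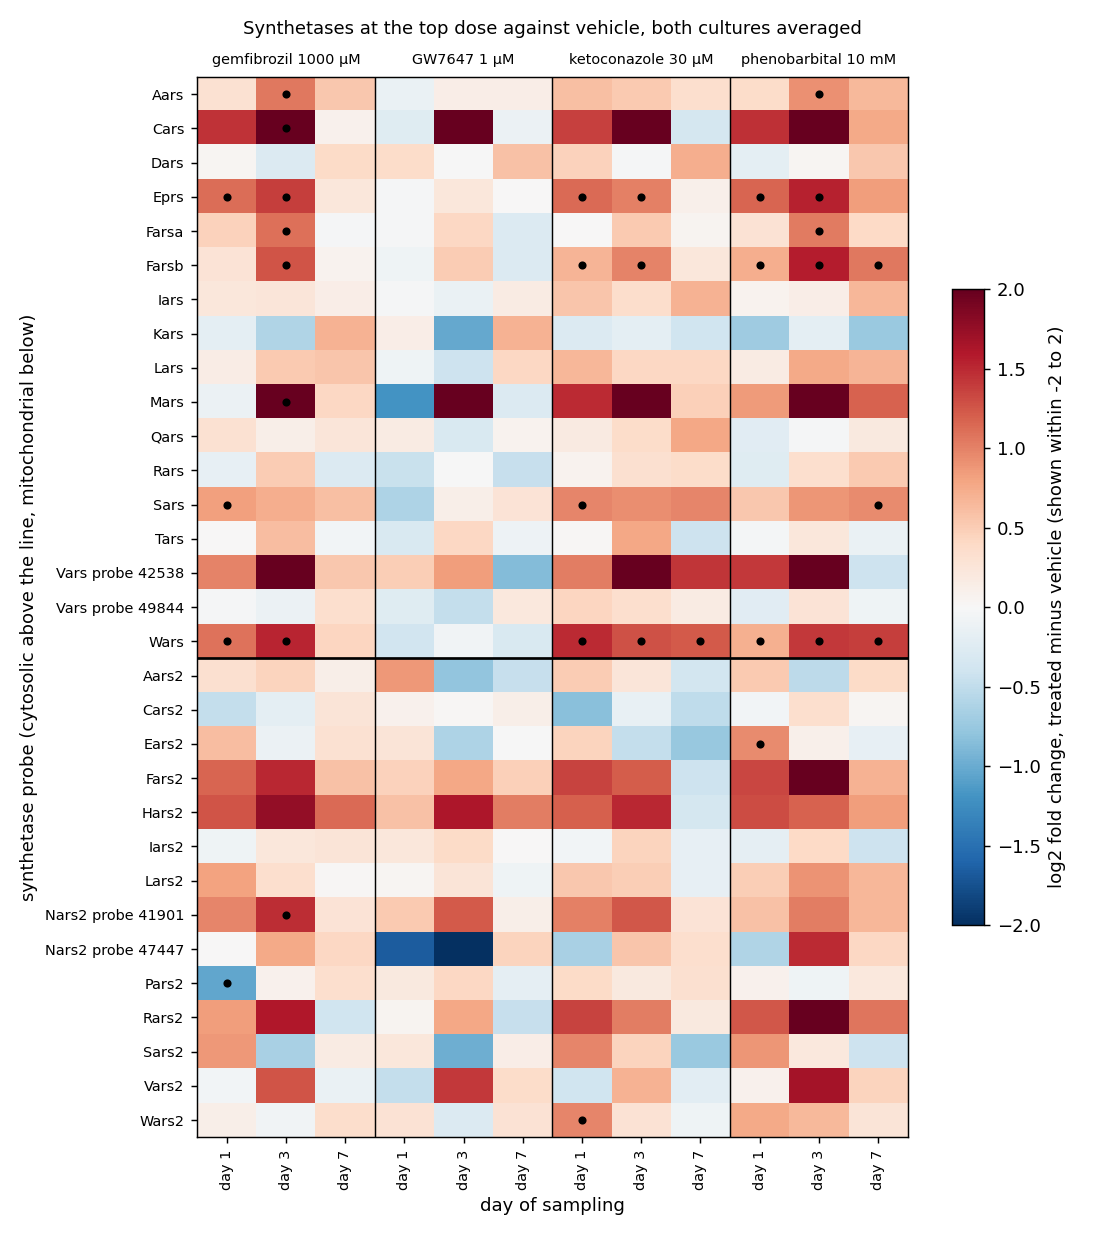
Rows are synthetase probes that passed the filter and columns are the 12 top-dose comparisons (compound and day). Colour gives the log2 fold change of treated over vehicle, averaged over both cultures and drawn within -2 to 2, and dots mark adjusted p under 0.05. Dots are concentrated in the rows of Wars, Eprs, Farsb and Sars, and the GW7647 columns and the gemfibrozil column of day 7 hold none.

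On day 1, 3 cytosolic probes were called higher with 1000 µM gemfibrozil (17.6%, against 9.84% of all probes), 4 with 30 µM ketoconazole (23.5%, against 8.13%) and 3 with 10 mM phenobarbital (17.6%, against 9.26%). On day 3 the counts were 7 with gemfibrozil (41.2%, against 13.1%), 3 with ketoconazole (17.6%, against 1.14%) and 5 with phenobarbital (29.4%, against 5.11%). The 7 with gemfibrozil include Aars, Cars and Mars, each lost without plate 9. On day 7 there were 0 with gemfibrozil, where 0% of all probes were called, 1 with ketoconazole (5.88%, against 0.372%) and 3 with phenobarbital (17.6%, against 2.81%). No cytosolic probe was called lower at any top dose. The background of lower calls was 7.51%, 9.19% and 7.77% for gemfibrozil, ketoconazole and phenobarbital on day 1, 7.02%, 2.05% and 7.55% on day 3, and 0.146% and 3.28% for ketoconazole and phenobarbital on day 7.

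With the plate as replicate block, the cytosolic calls on day 3 rose to 8 for ketoconazole and 9 for phenobarbital, and on day 7 to 3 and 6. In co-culture alone, phenobarbital gave 1 cytosolic call on day 1 (Eprs), 3 on day 3 (Eprs, Farsa and Farsb) and 0 on day 7, with 4, 3 and 4 wells. The shares of all probes given above belong to the fit without the block, averaged over both cultures. Those for the block and for co-culture alone are not printed here, so these counts are not set against a background and no conclusion is drawn from them. The same holds for counts under the other alternatives further on.

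Marker sums moved at the same doses. On day 3 the median sum of the 11 hepatocyte marker probes was 49000 CPM in monoculture vehicle wells and 39700 CPM in co-culture ones. It was 16200 and 19500 CPM with gemfibrozil, 25200 and 26500 CPM with ketoconazole, and 28500 and 6730 CPM with phenobarbital. The summed level of 10 cholangiocyte probes lay between 304 and 1550 CPM in the vehicle wells of that day, and between 9.82 and 119 CPM in the 6 phenobarbital wells. With gemfibrozil its medians were 37.7 and 37.6 CPM, with single wells as high as 312 and 628 CPM, and with ketoconazole it lay between 312 and 906 CPM, within the vehicle range. The stellate and mesenchymal sum lay between 610 and 1630 CPM with vehicle and between 107 and 497 CPM with phenobarbital. On day 1 the hepatocyte medians in co-culture were 50300 CPM with vehicle and 23900, 33000 and 28500 CPM with gemfibrozil, ketoconazole and phenobarbital, whereas in monoculture they were 53800 CPM and 46000, 49000 and 49200 CPM. The part of these changes in the synthetase calls was not tested.

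Of the 34 calls of both classes, 9 held under every alternative run over both cultures. They are Eprs and Wars with ketoconazole and Eprs with phenobarbital on day 1, and Eprs, Farsb and Wars with gemfibrozil and with phenobarbital on day 3. In co-culture alone, which was run for phenobarbital, Eprs on both of these days and Farsb on day 3 stayed called. Wars on day 3 did not.

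Wars (tryptophanyl-tRNA synthetase) was called in more of these comparisons than any other member. Values are given in the order of plates 1, 3, 5 and 7, for monoculture and then co-culture. In vehicle wells of day 1 Wars was at 55.6, 50.4, 43.4 and 77.4 CPM and at 48.6, 52.5, 59.6 and 77.3 CPM. With 30 µM ketoconazole it was at 109, 147, 241 and 170 CPM and at 78.6, 171, 190 and 188 CPM. All 8 treated wells lay above all 8 vehicle wells, the plate 1 co-culture well by little, and the log2 fold change was 1.49 ± 0.23 (SE, adjusted p = 2.17e-06, edgeR).

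On day 3 the vehicle wells held Wars at 32.7, 46.6, 65.3 and 58.1 CPM and at 45.2, 78, 66.7 and 86.9 CPM. The ketoconazole wells held 117, 127, 138 and 122 CPM and 152, 151, 182 and 157 CPM, again without overlap in either culture (log2 fold change 1.27 ± 0.30, adjusted p = 0.00621). With phenobarbital, where plate 3 has no library of this group, Wars was at 155, 99.7 and 213 CPM and at 145, 131 and 210 CPM, above every vehicle well (1.42 ± 0.31, adjusted p = 0.000873). On day 7 the vehicle wells were at 65.2, 52.6, 42.6 and 64 CPM and at 64.9, 50.8, 46.7 and 75.5 CPM. Ketoconazole wells were at 213, 217, 135 and 123 CPM in monoculture and at 68.2, 136, 110 and 92.7 CPM in co-culture, where the plate 1 well overlapped the vehicle wells. That difference was 1.22 ± 0.30 on the log2 scale (adjusted p = 0.0292), and it was no longer called in 6 of 11 alternatives. Leaving out plate 3 or plate 5 was among them, as was leaving out the shallow plate 1 monoculture library. Phenobarbital wells were at 122, 185, 101 and 177 CPM and at 61.6, 228, 149 and 141 CPM, with only the plate 1 co-culture well inside the vehicle range (1.39 ± 0.30, adjusted p = 0.0015). Without plate 3 or without plate 7 that call was lost, and the adjusted p reached 0.102.

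Eprs, whose protein charges tRNA with both glutamate and proline, was at 411, 443, 392 and 575 CPM in monoculture and 311, 379, 380 and 392 CPM in co-culture in vehicle wells of day 1. With ketoconazole it was at 607, 777, 1380 and 927 CPM and at 546, 1040, 981 and 887 CPM. Phenobarbital wells held 542, 855, 1700 and 805 CPM and 807, 756, 925 and 819 CPM. In co-culture all treated wells of both compounds lay above the vehicle wells, and in monoculture the plate 1 phenobarbital well overlapped. The log2 fold changes were 1.14 ± 0.22 (adjusted p = 9.15e-05) for ketoconazole and 1.17 ± 0.22 (adjusted p = 7.14e-05) for phenobarbital. On day 3 Eprs was at 204, 335, 411 and 368 CPM and at 206, 261, 275 and 285 CPM in vehicle wells, and at 608, 729 and 664 CPM and 1200, 558 and 1440 CPM with phenobarbital (plates 1, 5 and 7). No phenobarbital well overlapped a vehicle well, and the log2 fold change was 1.54 ± 0.31 (adjusted p = 0.000256). For ketoconazole on day 3 the call (1.00 ± 0.29, adjusted p = 0.0387) was lost in 8 of 13 alternatives, among them leaving out any 1 of plates 1, 3, 5 and 7. On day 7 Eprs was not called for any compound.

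Farsb, the beta subunit of the phenylalanyl-tRNA synthetase, was at 21.6, 32.8, 42.2 and 47.3 CPM and at 41, 33.5, 57.8 and 44.6 CPM in vehicle wells of day 3. Phenobarbital wells were at 92.1, 113 and 125 CPM and at 95.5, 102 and 189 CPM, and ketoconazole wells at 74.3, 67.7, 77.3 and 81.7 CPM and 77.6, 73.8, 89.3 and 92.2 CPM. Neither compound overlapped the vehicle wells in either culture. The log2 fold changes were 1.57 ± 0.26 (adjusted p = 1.52e-05) and 0.99 ± 0.25 (adjusted p = 0.0124), and the call for ketoconazole was lost without any 1 of plates 1, 3, 5 and 7. On day 1 the changes were smaller, 0.68 ± 0.20 (adjusted p = 0.0129) with ketoconazole and 0.73 ± 0.20 (adjusted p = 0.00802) with phenobarbital. Neither day 1 call held without plate 5, where the adjusted p rose as high as 0.476 for ketoconazole. On day 7 Farsb was called with phenobarbital alone (1.06 ± 0.29, adjusted p = 0.0142), a call lost without plate 3, 5 or 7 (adjusted p up to 0.262). Farsa, the alpha subunit of the same enzyme, was called with gemfibrozil (1.10 ± 0.25, adjusted p = 0.00178) and phenobarbital (1.04 ± 0.27, adjusted p = 0.00586) on day 3. The first call was lost without plate 5 (adjusted p = 0.0512) and the second without plate 7 (adjusted p = 0.0555). In monoculture with gemfibrozil Farsa was at 168 CPM on plate 9, and the next highest of the 5 wells was at 57 CPM.

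Sars (seryl-tRNA synthetase) differed more between wells. Vehicle wells of day 1 held 35.7, 38.4, 44.8 and 88.2 CPM in monoculture and 37.7, 36.9, 49.9 and 58.5 CPM in co-culture. Ketoconazole wells held 87.8, 89.7, 39.3 and 88.1 CPM and 156, 85.7, 129 and 101 CPM. The groups did not overlap in co-culture and overlapped in monoculture, where the plate 5 well was the low one. The log2 fold change was 0.98 ± 0.29 (adjusted p = 0.0132), and it was lost without plate 1, 3 or 5. The gemfibrozil call of day 1 (0.82 ± 0.29, adjusted p = 0.0416) and the phenobarbital call of day 7 (0.95 ± 0.28, adjusted p = 0.0236) were each lost without any 1 of 3 plates, namely 1, 3 and 5 for gemfibrozil and 3, 5 and 7 for phenobarbital.

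**Figure D2:**
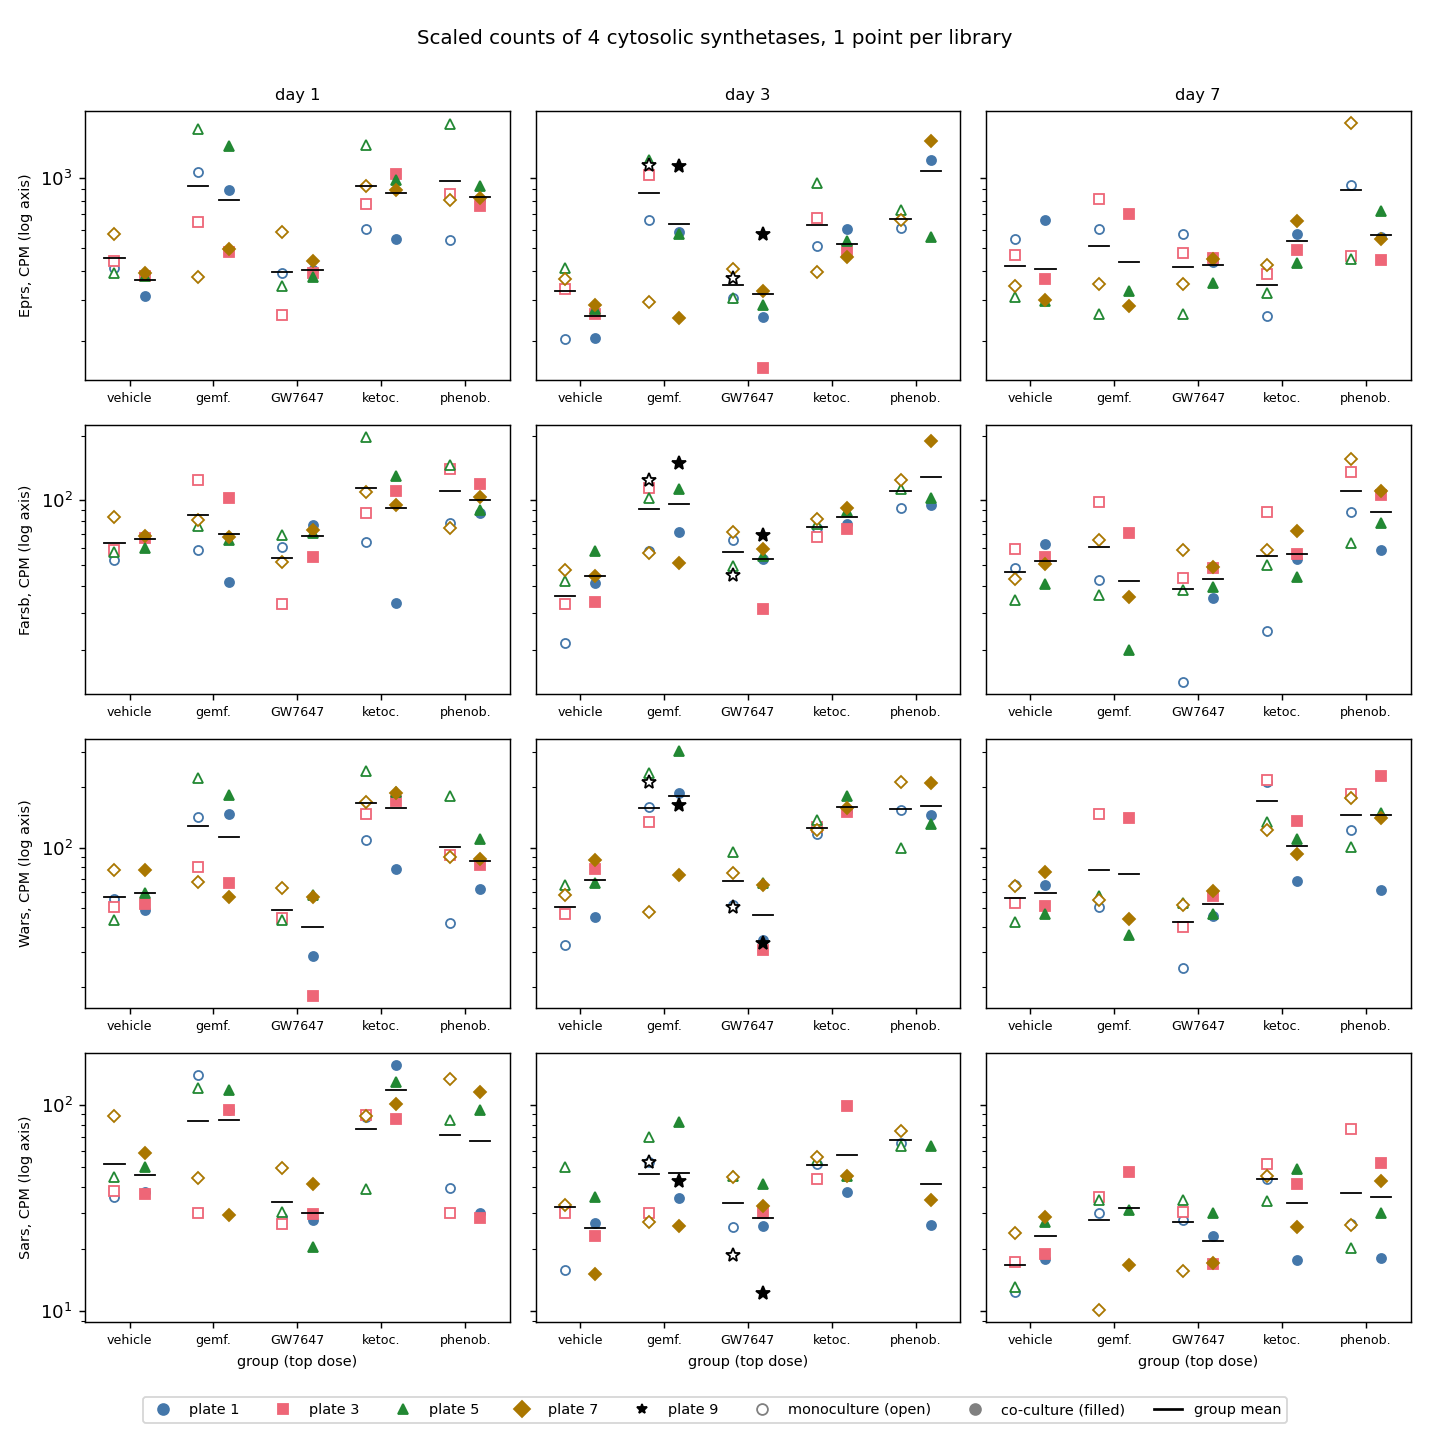
Each point is 1 library, with its scaled count in CPM on a log axis, for vehicle and the top dose of each compound on days 1, 3 and 7. Rows are Eprs, Farsb, Wars and Sars, marker shape and colour give the plate, open markers are monoculture and filled ones co-culture, and bars are group means. On day 3 all ketoconazole and phenobarbital points of Wars and Farsb lie above the vehicle points, while the plate 7 points of gemfibrozil stay among them.

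The response to 1000 µM gemfibrozil differed by plate. On day 1 Eprs was at 1060, 651, 1620 and 377 CPM in monoculture and 890, 484, 1370 and 495 CPM in co-culture, against 311 to 575 CPM in the 8 vehicle wells. Wells of plates 1 and 5 were high in both cultures and those of plate 7 were within the vehicle range. Wars was also highest on plates 1 and 5, at 143, 79.8, 224 and 67.3 CPM and at 148, 66.5, 183 and 56.5 CPM. The log2 fold changes of day 1 were 1.11 ± 0.22 (adjusted p = 0.000218) for Eprs and 1.08 ± 0.23 (adjusted p = 0.000618) for Wars. Both were lost without plate 5, where the adjusted p was 0.114 and 0.155. Farsb differed from them on the same day. It was at 58.9, 125, 75.7 and 80.7 CPM and at 41.7, 102, 65.5 and 67.6 CPM, so the plate 3 wells alone lay above all 8 vehicle wells, which ran from 52.8 to 83.7 CPM.

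On day 3 Eprs was at 662, 1030, 1200 and 295 CPM on plates 1, 3, 5 and 7 and at 1140 CPM on plate 9 in monoculture. In co-culture it was at 586, 576, 252 and 1130 CPM on plates 1, 5, 7 and 9. Wars was at 159, 134, 237, 47.8 and 213 CPM and at 187, 304, 73.2 and 163 CPM on the same plates. The plate 7 wells again lay within the vehicle range and all others above it. The changes were 1.38 ± 0.29 for Eprs (adjusted p = 0.000646), 1.53 ± 0.29 for Wars (adjusted p = 0.000224) and 1.25 ± 0.24 for Farsb (adjusted p = 0.000285). On day 7 none of the members was called, with 2 cytosolic and 0 mitochondrial probes at an unadjusted p under 0.05 and 0 calls by DESeq2. There the plate 3 wells alone lay above every vehicle well, at 817 and 702 CPM for Eprs and at 148 and 141 CPM for Wars.

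Trib3, a target of ATF4 that is no synthetase, also differed by plate with gemfibrozil. On day 1 it was at 495, 97.9, 495 and 131 CPM in monoculture and 363, 161, 436 and 58.1 CPM in co-culture, with vehicle wells between 66.7 and 120 CPM, so the wells of plates 1 and 5 were the high ones in both cultures. On day 7 it was at 276 and 227 CPM on plate 3 and between 18.6 and 75.5 CPM on the other plates, with vehicle wells between 13.6 and 68.7 CPM. Asns (asparagine synthetase), another ATF4 target, was at 5.74, 19.7, 32.8 and 10.2 CPM and at 11.1, 8.31, 23.9 and 5.06 CPM on day 1, with vehicle wells between 8.73 and 13.3 CPM. Its plate 5 wells were high in both cultures and its plate 1 wells were not. The order of the plates was thus not shared by all of these genes, and why the plates differed was not tested.

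A co-culture well labelled 100 µM gemfibrozil on day 3 (plate 3) also stood out. Eprs was at 896 CPM there, against 275, 330 and 305 CPM on plates 1, 5 and 7 and 701 CPM on plate 9. Wars was at 119 CPM against 21.8 to 82.7 CPM in the other 4 wells, and Trib3 at 361 CPM against 58.6 to 110 CPM. The co-culture group at 1000 µM on that day has no plate 3 library. The well was kept in its labelled group, where no member was called.

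Among the carriers of the TGATGNAA letters, Aars was called with gemfibrozil (1.05 ± 0.26, adjusted p = 0.0039) and phenobarbital (0.91 ± 0.28, adjusted p = 0.023) on day 3. With phenobarbital it was at 293, 313 and 316 CPM and at 357, 260 and 329 CPM, above the vehicle wells at 152, 181, 245 and 241 CPM and at 149, 122, 136 and 129 CPM. The gemfibrozil call was lost without plate 5 or plate 9, and the phenobarbital call without plate 3, 5 or 7 or with the number of detected probes as covariate. Iars and Tars were not called at any top dose. In all, the 5 carriers hold 4 of the 29 cytosolic calls (60 tests) and the other 12 cytosolic probes hold 25 (144 tests). These 12 include Dars and Rars, which had no window to search. With the plate as replicate block the carriers hold 10 of 44 calls, of which 4 are of Aars, 2 each of Cars and Mars, and 1 each of Iars and Tars, and the other probes hold 34. Wars, Eprs and Farsb, with most of the calls, have no match in their windows.

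Cars and Mars had the largest fitted changes of the cytosolic members at the top doses, both with gemfibrozil on day 3, and both rest on plate 9. Cars was at 0, 3.57, 2.73 and 1.42 CPM and at 0, 1.65, 0 and 3.24 CPM in vehicle wells. With gemfibrozil it was at 0, 10.1, 25.9 and 5.35 CPM on plates 1, 3, 5 and 7 and at 157 CPM on plate 9 in monoculture, and at 0, 4.29, 5.41 and 127 CPM on plates 1, 5, 7 and 9 in co-culture. The fitted change of 4.55 ± 1.26 (adjusted p = 0.00894) was 1.88 with the plate as replicate block (adjusted p = 0.0735). Mars was at 0, 1.12, 1.89 and 1.06 CPM in monoculture vehicle wells and at 0 in all 4 co-culture ones. Gemfibrozil wells held 0, 0.375, 3.47 and 3.56 CPM and 57 CPM on plate 9, and in co-culture 0, 3.16, 1.2 and 87.6 CPM. Against the 3 counts that a total of 0 allows over the 4 co-culture vehicle wells (0.218 CPM), the co-culture mean of 23 CPM was at least 105-fold higher, and without plate 9 the mean of 1.46 CPM was at least 6.67-fold higher. The Mars call (adjusted p = 0.00897) was lost with the block (adjusted p = 0.0587) and without plate 5 or plate 9, and the Cars call without the same plates.

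Kars, which charges lysine in cytosol and mitochondria, was called in none of the 12 comparisons, and its smallest adjusted p was 0.133. The log2 fold changes of Kars ran from -1.03 to 0.70 with a median of -0.24 and were above 0 in 3 of 12. Dars, Iars, Lars, Qars, Rars, Tars and both Vars probes (for aspartate, isoleucine, leucine, glutamine, arginine, threonine and valine) were not called either, with smallest adjusted p-values between 0.0623 and 0.287. With the plate as replicate block, Lars was called in 2 comparisons and Iars, Qars, Tars and Vars probe 42538 in 1 each, while Dars, Kars, Rars and Vars probe 49844 stayed without a call. Their medians over the 12 comparisons ran from -0.02 for Tars to 1.01 for the low probe of Vars.

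Among the mitochondrial enzymes, 5 of 15 probes were called once each, of which 4 are described, and 10 were never called. Wars2, the mitochondrial tryptophanyl-tRNA synthetase, rose with ketoconazole on day 1 (0.98 ± 0.28, adjusted p = 0.0101). It was at 41, 66.4, 35.4 and 36.8 CPM and at 43.1, 40.4, 31.7 and 43.4 CPM in vehicle wells, and at 73, 57.7, 215 and 77.8 CPM and 43, 70.8, 59.6 and 83.8 CPM with ketoconazole. The groups overlapped in both cultures, the plate 5 monoculture well stood far above the rest, and the call was lost without plate 5 or plate 7. Ears2, the mitochondrial glutamyl-tRNA synthetase, rose with phenobarbital on day 1 (0.95 ± 0.24, adjusted p = 0.00248). Vehicle wells held 32.1, 23, 12.8 and 16.4 CPM and 35, 14.3, 14.5 and 17.7 CPM, and phenobarbital wells 36.6, 40.8, 30.6 and 65.8 CPM and 40.3, 35, 24.4 and 43.5 CPM. The groups overlapped in both cultures, and without plate 7 the adjusted p was 0.135. In co-culture alone neither Ears2 nor another mitochondrial probe was called with phenobarbital.

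Pars2, the mitochondrial prolyl-tRNA synthetase, was the 1 member that fell at a top dose. It was at 6.27, 5.44, 4.74 and 11.6 CPM and at 6.88, 5.4, 5.77 and 4.95 CPM in vehicle wells of day 1. With gemfibrozil it was at 1.15, 1.82, 2.37 and 4.07 CPM, below the monoculture vehicle wells, and at 4.38, 1.63, 3.69 and 5.77 CPM in co-culture, with overlap. The log2 fold change was -1.04 ± 0.36 (adjusted p = 0.0315), and the call was lost without plate 1, 3 or 5 and with no filter on low counts. Nars2 (asparaginyl-tRNA synthetase), by probe 41901, rose with gemfibrozil on day 3 (1.48 ± 0.52, adjusted p = 0.0322), a call lost in 6 of 13 alternatives, among them those without plate 1, 5, 7 or 9.

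The background beside these mitochondrial counts is the one already given for each comparison. With the plate as replicate block, 2 mitochondrial probes were called on day 1 with each of gemfibrozil, ketoconazole and phenobarbital, and 1 with gemfibrozil, 1 with ketoconazole and 2 with phenobarbital on day 3. For these block counts no share of all probes is given. Medians of the log2 fold change can be set side by side. On day 3 with phenobarbital, the median was 0.88 over the 17 cytosolic probes, 0.90 over the 15 mitochondrial probes and 0.18 over all probes. With gemfibrozil on day 3 these medians were 0.72, 0.45 and 0.27. On day 7 they were 0.65, 0.42 and 0.01 with phenobarbital and 0.36, -0.21 and -0.12 with ketoconazole. On day 1 they were 0.60, 0.50 and 0.06 with ketoconazole. So the mitochondrial medians lay above that of all probes in several comparisons in which 0 or 1 of their probes passed the test.

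GW7647 at 1 µM gave no call among the synthetases on any day in edgeR, where 0.352%, 0.29% and 0.0219% of all probes were called on days 1, 3 and 7. At an unadjusted p under 0.05 there were 2 cytosolic and 1 mitochondrial probes on day 1, 4 and 3 on day 3, and 0 and 0 on day 7. DESeq2 called 2 cytosolic and 2 mitochondrial probes on day 3 and 0 on the other days. The cytosolic medians were -0.09, 0.12 and 0.00 and the mitochondrial ones 0.23, 0.39 and 0.12. Eprs, for example, was at 392, 260, 346 and 587 CPM in monoculture and 403, 393, 377 and 440 CPM in co-culture on day 1, which overlaps the vehicle wells.

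At the low and middle doses of the 4 compounds, 24 comparisons gave 0 cytosolic calls higher and 2 lower among 408 tests, and 3 mitochondrial calls higher and 0 lower among 360. All 5 came from 100 µM gemfibrozil on day 1, where 9.48% of all probes were called higher and 5.5% lower. Fars2, the mitochondrial phenylalanyl-tRNA synthetase, was at 20, 15.1, 15.1 and 132 CPM and at 65.3, 42.3, 14.8 and 52.2 CPM there, against 6.27, 13.9, 4.92 and 12.1 CPM and 5.67, 1.73, 8.1 and 11.6 CPM in vehicle wells. No treated well overlapped the vehicle wells of its culture (2.49 ± 0.66, adjusted p = 0.0182). Nars2 by probe 41901 rose by 1.28 and Wars2 by 1.01 on the log2 scale, while Sars fell by 0.93 and Vars by probe 49844 fell by 0.58. All 5 calls were lost without plate 1, without plate 7 and with the number of detected probes as covariate. These gemfibrozil wells had between 12143 and 14760 detected probes and the vehicle wells between 11943 and 13449.

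Elsewhere at these doses the share of all probes called was 0.016% and 0.136% for GW7647 at 0.01 and 0.1 µM and 0.112% for ketoconazole at 10 µM on day 1, 0.0521% for GW7647 at 0.1 µM on day 3, and 0.0219% for ketoconazole at 10 µM on day 7. In all other low and middle dose comparisons it was 0%. With the plate as replicate block, 5 cytosolic and 5 mitochondrial calls were made at these doses, and DESeq2 made 15 and 10. No share of all probes is given for these settings.

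**Figure D3:**
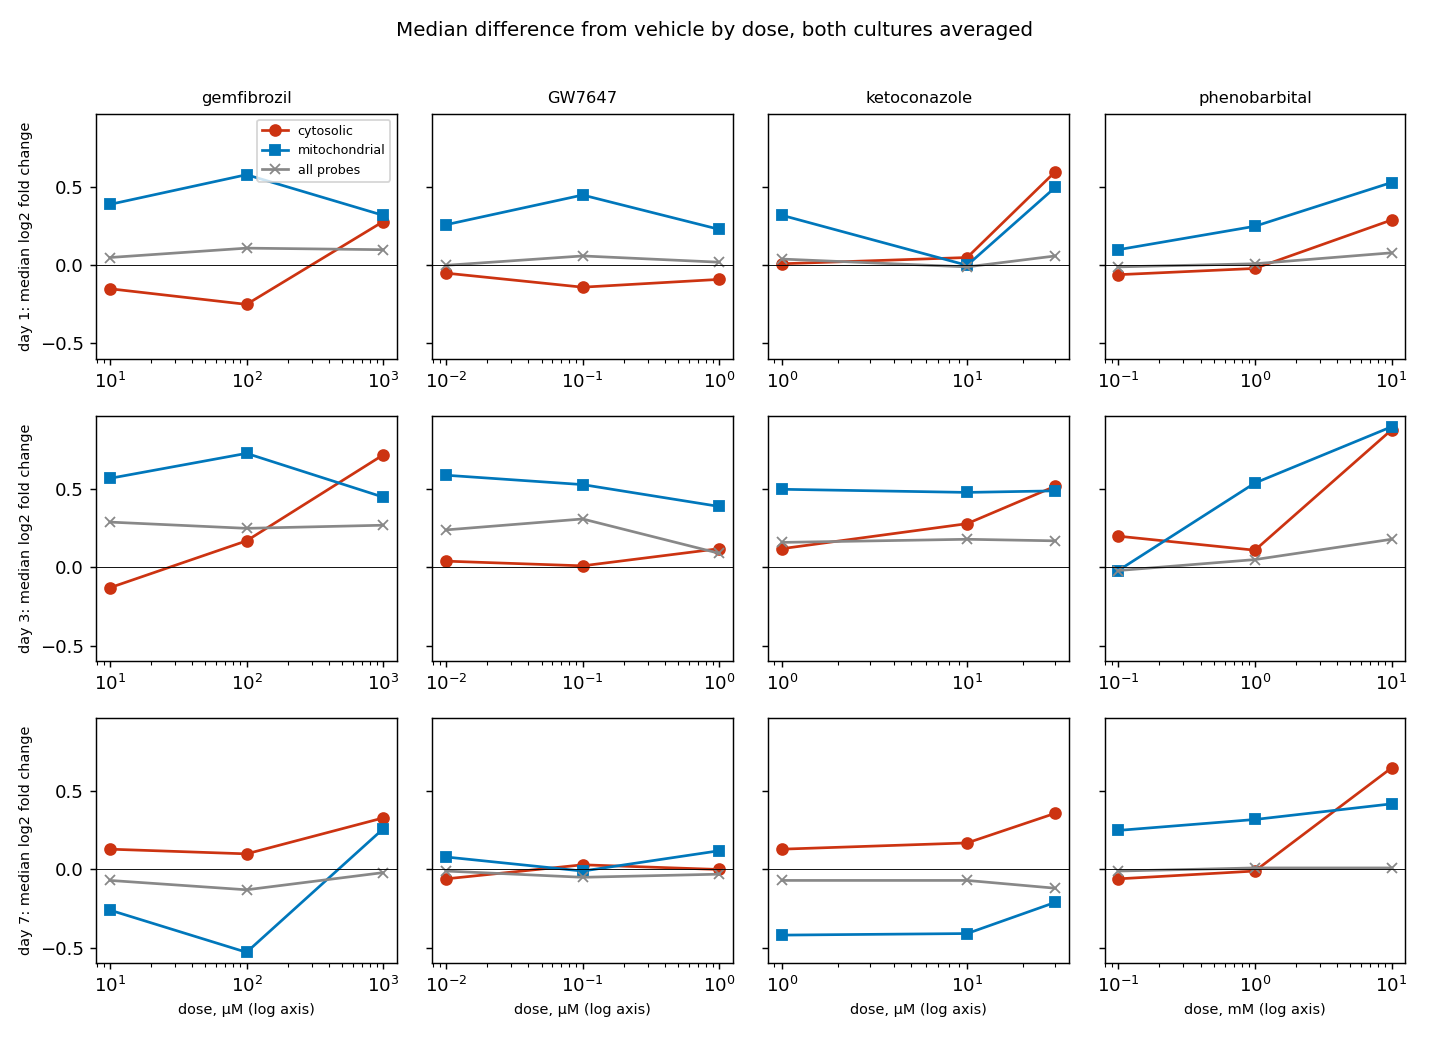
Panels show the median log2 fold change from vehicle against dose (log axis) for cytosolic synthetases, mitochondrial synthetases and all probes tested, by compound (columns) and day (rows), averaged over both cultures. With phenobarbital on day 3 both synthetase medians are at 0.88 and 0.90 at the top dose while that of all probes is at 0.18, and with GW7647 at 1 µM the cytosolic medians lie between -0.09 and 0.12.

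The plate 9 libraries stood apart for some synthetases at every dose of both compounds they hold. Mars lay between 38.6 and 106 CPM in the 9 plate 9 libraries and at 3.69 CPM or less in the 33 libraries of the same groups on other plates. Cars lay between 77.3 and 157 CPM against at most 37.9 CPM, and Tars (threonyl-tRNA synthetase) between 140 and 200 CPM against at most 99.9 CPM. Ears2 went the other way, between 1.53 and 8.39 CPM against at least 9.52 CPM. In all, 4 of 33 members lay above (12.1%, against 9.24% of 14824 probes) and 1 lay below (3.03%, against 3.16%). The members' share is thus near that of all probes. Because plate 9 holds no vehicle well, its difference from other plates and the action of a compound cannot be told apart within it.

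Outside plate 9, 1 monoculture well also held high Cars and Mars. In the plate 5 monoculture well of 30 µM ketoconazole on day 1, Cars was at 134 CPM, Mars at 26.2 CPM, Wars2 at 215 CPM and Nars2 by probe 41901 at 83.3 CPM, while Kars was at 17.8 CPM. The other 3 wells of that group held Cars between 0 and 12 CPM and Kars between 140 and 247 CPM. Wars2 went the other way on plate 9, where it lay between 11.6 and 23.2 CPM, against 22.8 to 126 CPM in the same groups on other plates.

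**Figure D4:**
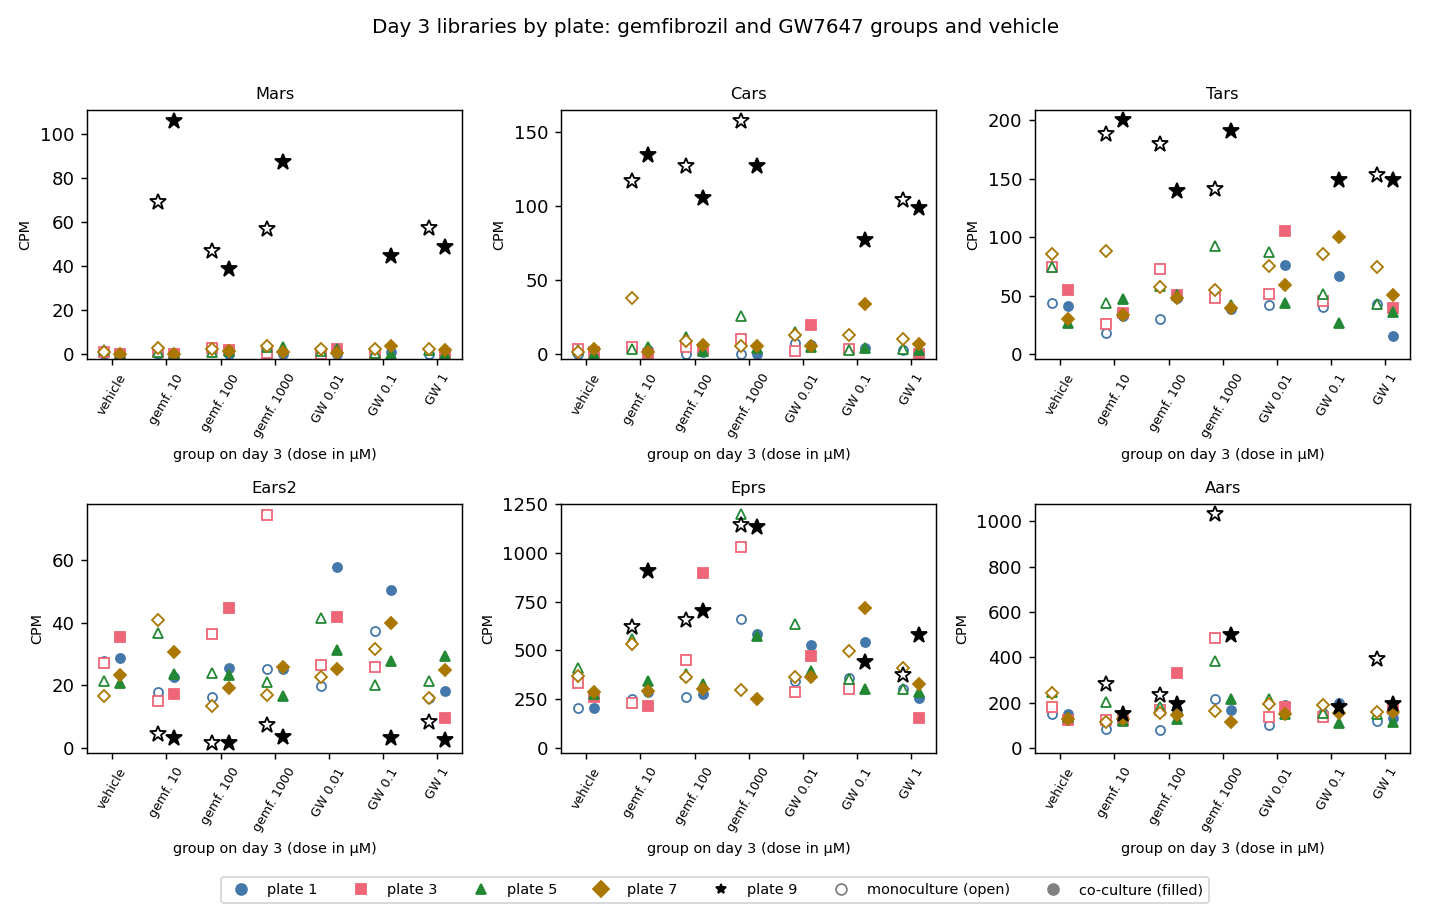
Each point is 1 day 3 library, in CPM on linear axes, for the vehicle, gemfibrozil and GW7647 groups, with the plate given by marker shape and colour. Open markers are monoculture and filled ones co-culture. For Mars, Cars and Tars the 9 plate 9 points lie above all points of the other plates in the same groups, for Ears2 they lie below them, and for Eprs and Aars they overlap them.

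Culture format was compared next, to show what the non-parenchymal cells add. Co-culture and monoculture vehicle wells did not differ in any synthetase on any day in edgeR (0 of 32 on each day, with 0 at an unadjusted p under 0.05), and 0% of all probes were called. DESeq2 called 1 cytosolic probe on day 3 and 0 on the other days. Over all wells of a day the members again had 0 calls, with 1 cytosolic and 0 mitochondrial probes at an unadjusted p under 0.05 on each day, where 0.288%, 0.126% and 0.117% of all probes were called. The smallest p-values over all wells were those of Eprs on day 1 (log2 difference of co-culture minus monoculture -0.19 ± 0.09, adjusted p = 0.551), Aars on day 3 (-0.24 ± 0.11, adjusted p = 0.635) and Tars on day 7 (-0.25 ± 0.12, adjusted p = 0.955). In vehicle wells, Tars on day 1 averaged 76.9 CPM in co-culture and 119 CPM in monoculture, and Aars on day 3 averaged 134 and 205 CPM.

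The top-dose response was also compared between cultures, by testing the difference of the differences from vehicle. None of 204 cytosolic and 180 mitochondrial tests was called by edgeR, with 2 cytosolic and 3 mitochondrial tests at an unadjusted p under 0.05. DESeq2 called 4 cytosolic and 0 mitochondrial probes. Of all probes 0.0219% were called for ketoconazole on day 7 and 0% in each of the other 11 comparisons. The smallest p-value belonged to the low Vars probe 42538 with GW7647 on day 3 (adjusted p = 1), whose co-culture mean was 0.569 CPM. The response of Eprs to phenobarbital on day 3 was 2.11 ± 0.45 in co-culture alone (adjusted p = 0.00391) and 0.96 ± 0.44 in monoculture alone (adjusted p = 0.282), and the difference between cultures was not called.

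Time in culture was compared in the vehicle wells, where 16 cytosolic and 12 mitochondrial probes passed the filter. From day 1 to day 7, 7 of 16 cytosolic probes fell (43.8%, against 16.5% of all probes) and 0 rose (against 27.3%). None of the 12 mitochondrial probes was called in either direction by edgeR or DESeq2, with 1 at an unadjusted p under 0.05. The median log2 fold change was -0.52 over the cytosolic probes, 0.43 over the mitochondrial ones and 0.23 over all probes. The 7 that fell were Aars, Dars, Iars, Lars, Rars, Sars and Vars by probe 49844. All 7 stayed called in each of the 12 alternatives, including the one with the number of detected probes as covariate. That number lay between 11943 and 13449 on day 1 and between 13281 and 14910 on day 7, with little overlap. The covariate and the day can thus hardly be separated there, and no conclusion is drawn from the calls kept under it.

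Vars (valyl-tRNA synthetase), by probe 49844, was at 202, 163, 122 and 159 CPM in monoculture and 148, 172, 98.8 and 166 CPM in co-culture on day 1. On day 7 it was at 59.4, 104, 71 and 77.7 CPM and at 57.4, 76.9, 92.2 and 64.9 CPM. The days did not overlap in either culture (log2 fold change -0.95 ± 0.16, adjusted p = 4.73e-05). Dars (aspartyl-tRNA synthetase), a subunit of the multisynthetase complex, was at 71.2, 47.8, 62.7 and 83 CPM and at 78.4, 66.8, 54.2 and 89.9 CPM on day 1. It was at 16.5, 25, 18.6 and 29.4 CPM and at 17.3, 22, 55.7 and 49.6 CPM on day 7, without overlap in monoculture (-1.20 ± 0.24, adjusted p = 0.000384). Sars was at 12.4, 17.3, 13.1 and 23.9 CPM and at 17.9, 19, 27.1 and 28.7 CPM on day 7, below all its day 1 wells (-1.22 ± 0.25, adjusted p = 0.000386). The other 4 fell by 0.66 for Aars, 0.66 for Iars, 0.69 for Lars and 0.93 for Rars on the log2 scale.

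From day 1 to day 3, 7 cytosolic probes fell (43.8%, against 10.4% of all probes) and 0 rose (against 10.9%). These were Aars, Cars, Farsa, Farsb, Mars, Sars and Tars, and only Aars and Sars are shared with the 7 of day 7. Of the mitochondrial probes 0 were called by edgeR, 1 was at an unadjusted p under 0.05 and DESeq2 called 2. The smallest p-values were those of Aars (-0.64 ± 0.16, adjusted p = 0.00503), Mars (-3.80 ± 1.00, adjusted p = 0.0103) and Cars (-2.27 ± 0.63, adjusted p = 0.013). These counts changed when the number of detected probes was used as covariate. That number lay between 8459 and 13115 in vehicle wells of day 3, 11943 and 13449 on day 1, and 13281 and 14910 on day 7. With that number as covariate 1 cytosolic probe was called in place of 7, and without plate 3 none was.

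Between day 3 and day 7, Cars, Eprs, Farsa and Mars rose and Dars, Iars, Lars, Qars and Vars by probe 49844 fell (25% and 31.2% of the cytosolic probes, against 26.2% and 14.6% of all probes). Fars2 and Nars2 by probe 41901 rose among the mitochondrial ones. With the number of detected probes as covariate none of these 11 was called, and Cars turned from 2.61 to -0.62 (adjusted p = 0.741). Vehicle wells of day 3 and day 7 did not overlap in that number. The covariate and the day can thus hardly be separated here, and no conclusion is drawn from the lost calls. Without plate 1 or plate 3 the cytosolic count was 5 and the mitochondrial count 0. The change over time did not differ between cultures in any member by edgeR, with 0% of all probes called in each of the 3 comparisons.

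**Figure D5:**
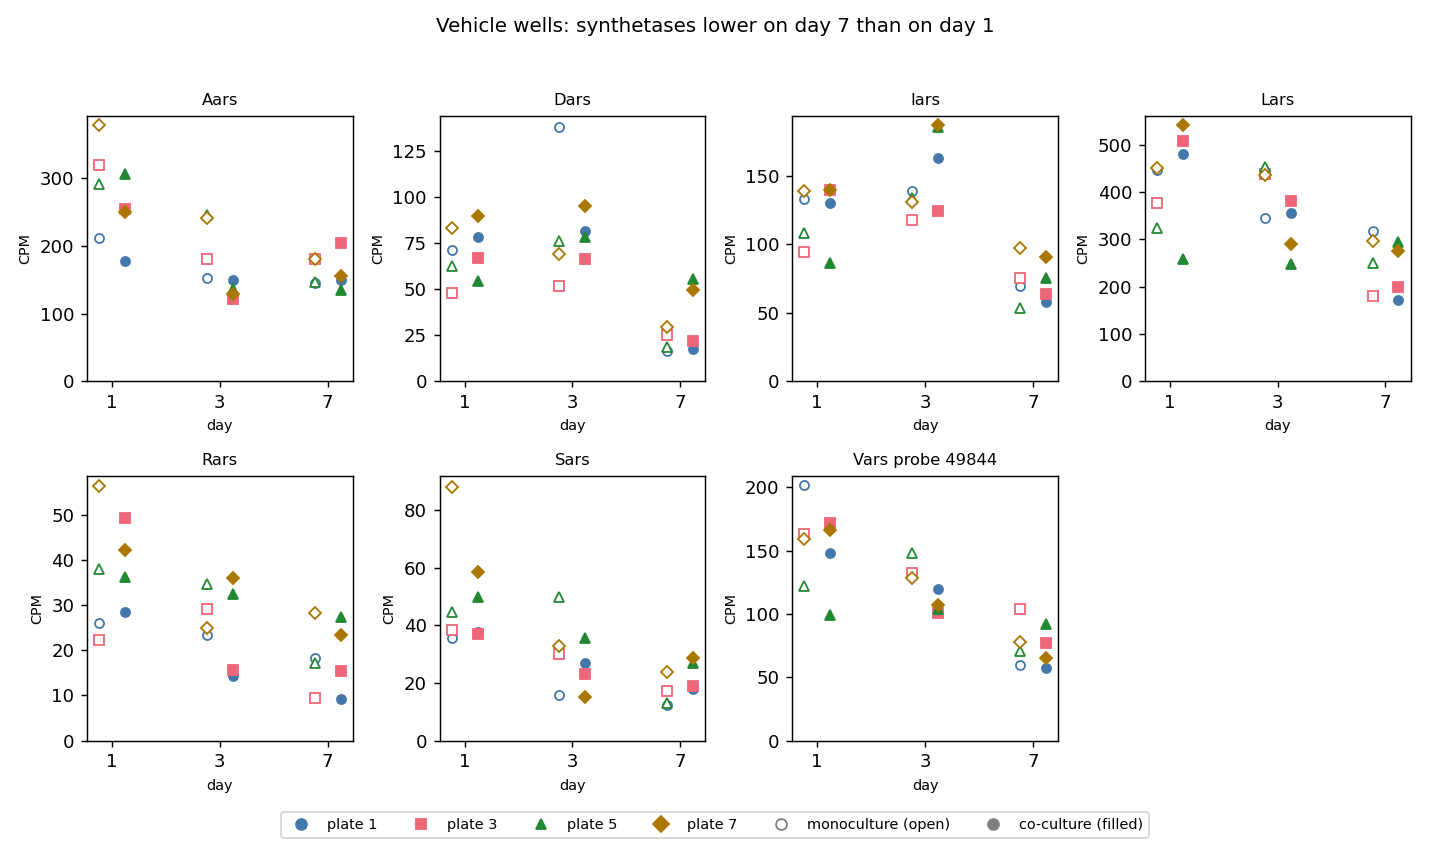
Each point is a vehicle library, in CPM from 0, on days 1, 3 and 7 for the 7 cytosolic synthetases that fell from day 1 to day 7. Marker shape and colour give the plate, open markers are monoculture and filled ones co-culture. The Vars points of probe 49844 lie between 98.8 and 202 CPM on day 1 and between 57.4 and 104 CPM on day 7.

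Subgroups of the enzymes were described by counts. Of the 8 probes of the multisynthetase complex, Eprs alone was called on day 1 with gemfibrozil, ketoconazole and phenobarbital and on day 3 with ketoconazole and phenobarbital, Eprs and Mars were called on day 3 with gemfibrozil, and none was called at a top dose on day 7. So 1 call is 12.5% of the complex and 2 are 25%, against 9.84%, 8.13% and 9.26% of all probes called higher on day 1 and 13.1%, 1.14% and 5.11% on day 3. From day 1 to day 7 in vehicle wells 4 of the 8 fell (Dars, Iars, Lars and Rars, 50% against 16.5% of all probes) with a median of -0.60. Among the structural classes of synthetases, class I (17 probes tested) held 4 calls with gemfibrozil on day 3 (23.5%) and class II (15 tested) held 5 (33.3%), with medians of 0.51 and 0.75, against 13.1% and a median of 0.27 over all probes. The calls of Cars and Mars in class I, and of Aars and Nars2 by probe 41901 in class II, were lost without plate 9. That plate holds no vehicle well, and Mars is also in the 25% of the complex. With phenobarbital on day 3 they held 2 and 3 calls (11.8% and 20%, against 5.11%), with medians of 0.75 and 0.91 against 0.18.

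Genes that work beside the synthetases were counted from lists. The integrated stress response list, with 28 probes of ATF4 and its known targets, held 17 calls higher with gemfibrozil (60.7%, against 9.84% of all probes), 16 with ketoconazole (57.1%, against 8.13%) and 16 with phenobarbital (57.1%, against 9.26%) on day 1. On day 3 it held 18 (64.3%, against 13.1%), 2 (7.14%, against 1.14%) and 12 (42.9%, against 5.11%), and on day 7 0, 1 (3.57%, against 0.372%) and 9 (32.1%, against 2.81%). In 3 of these comparisons (gemfibrozil on days 1 and 3 and ketoconazole on day 1) 1 probe of the list was called lower. GW7647 gave 0 on each day. On day 1 its median log2 fold change was 1.19, 1.25 and 1.30 for the 3 compounds, against medians of 0.28, 0.60 and 0.29 for the cytosolic synthetases and 0.10, 0.06 and 0.08 for all probes. Trib3 rose by 2.03 ± 0.33 with ketoconazole (adjusted p = 3.88e-06) and by 2.49 ± 0.34 with phenobarbital (adjusted p = 5.88e-08), and Atf4 itself by 1.25 ± 0.23 with ketoconazole (adjusted p = 5.13e-05). On day 3, Sesn2 rose by 2.07 ± 0.35 with gemfibrozil (adjusted p = 4.2e-05), and the cystine transporter gene Slc7a11 by 5.15 ± 0.86 with phenobarbital (adjusted p = 1.23e-05). The gemfibrozil groups of day 3 include plate 9, which holds no vehicle well, and list counts without it are not given. Asns was at 375 and 409 CPM there with 1000 µM gemfibrozil, and between 5.63 and 53.3 CPM on other plates. With 1 µM GW7647 it was at 177 and 194 CPM on plate 9 and at most at 30.8 CPM elsewhere. Trib3 and Chac1 on plate 9 lay within the range of the other 1000 µM gemfibrozil wells. The same limit holds for the lists below.

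The list of scaffold and charging partners (14 probes) held 1, 3 and 4 calls higher on day 1 for gemfibrozil, ketoconazole and phenobarbital (7.14%, 21.4% and 28.6%, against 9.84%, 8.13% and 9.26% of all probes). It held 5, 0 and 3 on day 3 (35.7%, 0% and 21.4%, against 13.1%, 1.14% and 5.11%) and 0, 0 and 2 on day 7, the last being 14.3% against 2.81%. The gemfibrozil count of day 3 includes the plate 9 wells. With gemfibrozil on day 1 there was 1 call lower, and both shares there are near or below those of all probes. Aimp2, a scaffold protein of the multisynthetase complex, rose with gemfibrozil on day 3 (1.30 ± 0.37, adjusted p = 0.0103) and with phenobarbital on day 7 (1.09 ± 0.27, adjusted p = 0.00756). It fell by 1.31 over time, from day 1 to day 7 in vehicle wells (adjusted p = 0.000399). Mettl1, which methylates tRNA, rose on day 1 with ketoconazole (1.41 ± 0.33, adjusted p = 0.00132) and phenobarbital (1.29 ± 0.33, adjusted p = 0.00365). Cytosolic elongation factors, with 6 probes, held 1 call higher in the 12 comparisons, with phenobarbital on day 1. From day 1 to day 7 in vehicle wells 4 of the 6 fell (66.7%, against 16.5% of all probes), among them Eef2 (-1.07 ± 0.22, adjusted p = 0.000513), and 2 rose (33.3%, against 27.3%).

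The list of mitochondrial charging and translation factors (23 probes) held at most 4 calls higher at a top dose (17.4%, against 8.13%), with ketoconazole on day 1, among them Qrsl1 (1.03 ± 0.21, adjusted p = 0.000175), a subunit of the enzyme that forms mitochondrial glutaminyl-tRNA. Mitochondrial ribosomal proteins held 12 calls higher of 71 with gemfibrozil on day 3 (16.9%, against 13.1% of all probes), which is near the background, and 2 lower (2.82%, against 7.02%). They held 6 higher of 70 with phenobarbital on day 7 (8.57%, against 2.81%), and 9 lower of 70 (12.9%, against 7.51%) and 1 higher (1.43%, against 9.84%) with gemfibrozil on day 1. In vehicle wells 42 of 69 of them fell from day 1 to day 7 (60.9%, against 16.5%) and 0 rose, with a median of -0.89 against 0.23 over all probes. The 12 mitochondrial synthetase probes tested there had a median of 0.43 and 0 calls. Hepatocyte and mesenchymal marker sums moved over the same days, as given above, and their part in these changes was not tested.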

How the data were processed

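TempO-Seq was run in 311 libraries. The deposited tables hold counts per probe, not normalized; the assay, sequencing and count tables came from BioSpyder, per the labels' protocols. Bowtie is named in the submitters' processing notes, and its version was not stated, nor was a genome build, in the sources used. The analysis used edgeR 4.0.16 under R 4.3.3 (filterByExpr with a minimum count of 10, TMM scaling, quasi-likelihood test) in 1 fit per day over its 26 groups, and in 1 fit of the 6 vehicle groups for time. Fits tested 12504, 13439 and 13707 probes on days 1, 3 and 7 and 11823 over time. P-values were adjusted by Benjamini-Hochberg over all probes tested, with a threshold of 0.05, and contrasts average the cultures unless said otherwise. SE was taken from the fold change and the test statistic. DESeq2 1.42.0 was an alternative, with RLE scaling, no filter, plates left out, the plate as block, probes of 1 gene summed, and 2 alternatives chosen after seeing the data (the number of detected probes as covariate, and 1 day 3 vehicle library left out).

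The labels' titles give the plate, which pairs libraries across groups. Deviations from group means correlated at 0.208, 0.176 and 0.268 within a plate on days 1, 3 and 7 (lowest plate 0.159, 0.111 and 0.129), and at -0.069, -0.047 and -0.089 between plates. The main fits had no plate term and took the wells of a plate as independent, so their p-values and SE leave this pairing out. The plate entered only in the alternative with the replicate block. The labels state biological replicates without saying whether plates are separate animals, so p-values measure the spread between these wells. The SE comes from the same test and carries that spread, while the floor given for Mars covers counting error only.

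The members and the lists (integrated stress response, scaffold and charging partners, elongation factors, mitochondrial factors, mitochondrial ribosomal proteins, multisynthetase complex, structural classes, cell type markers) were chosen with earlier results of these data known. Genes named were the 4 members of each class called most often, the smallest adjusted p per comparison, the 3 smallest p-values over time, Kars, Eprs and Wars, and up to 3 genes per list; others were named after their values were seen. On simulated counts, edgeR called 22% of probes changed by 1 and 59% of those changed by 2 on the log2 scale for gemfibrozil on day 1 (12334 probes), 17% and 66% on day 7 (13512 probes), and 17% and 75% for day 7 against day 1 (11418 probes). Results of 1 mitochondrial member are not reported here, though it counts in the class totals.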

Additional observations from a re-analysis of the deposited data

Results flagged for a closer look

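Wells that stood far from the others of their group were looked for by Dixon's criterion in 92 combinations of a called member and a group of 4 or 5 libraries, and 11 were found; chance gives about 1 in 20. Plate 9 holds 5 of them, all with 1000 µM gemfibrozil on day 3. These are Cars at 157 CPM in monoculture and 127 CPM in co-culture, Mars at 57 and 87.6 CPM and Farsa at 168 CPM in monoculture. Wars2 at 215 CPM and Sars at 39.3 CPM stood apart in the same monoculture well of 30 µM ketoconazole on day 1 (plate 5), Wars2 as the high one and Sars as the low one. Sars was high at 76.7 CPM in monoculture with 10 mM phenobarbital on day 7 (plate 3). In co-culture vehicle wells of day 1, Eprs was low at 311 CPM and Ears2 high at 35 CPM on plate 1, and Farsb was low at 59.8 CPM on plate 5.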

How the results depend on the processing

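Counts of calls were recomputed 570 times, of which 468 came within 1.5 times of the reported count. Of 762 recomputed values of called members, 606 stayed called, 155 did not and 1 reversed: Cars between day 3 and day 7 was -0.62 with the number of detected probes as covariate (adjusted p = 0.741). The cause of these changes was not tested. Counts that moved are given as reported, then under the alternative, without the share of all probes called under it.

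With gemfibrozil on day 1, 3 cytosolic calls ranged from 0 to 4 without 1 plate, and 1 mitochondrial call became 2 (RLE), 3 (DESeq2), 0 (no filter), 2 (replicate block), 3 (covariate) and 0 to 1 without 1 plate. With ketoconazole on day 1, 4 cytosolic calls became 7 (DESeq2), 7 (covariate) and 2 to 4 without 1 plate, and 1 mitochondrial call 2 (RLE), 3 (DESeq2), 2 (replicate block), 4 (covariate) and 0 to 1 without 1 plate. With phenobarbital on day 1, 3 cytosolic calls became 5 (covariate), 1 (co-culture alone) and 1 to 3 without 1 plate, and 1 mitochondrial call 2 (DESeq2), 2 (replicate block), 4 (covariate), 0 (co-culture alone) and 0 to 2 without 1 plate.

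On day 3, gemfibrozil's 7 cytosolic calls ranged from 3 to 7 without 1 plate or library, and its 2 mitochondrial calls became 1 (replicate block), 0 (covariate) and 0 to 1. GW7647's 0 cytosolic calls became 2 (RLE and DESeq2) and its 0 mitochondrial calls 2 (DESeq2). Ketoconazole's 3 cytosolic calls became 5 (DESeq2), 8 (replicate block) and 0 to 4, and its 0 mitochondrial calls 1 (DESeq2 and replicate block). Phenobarbital's 5 cytosolic calls became 8 (DESeq2), 9 (replicate block), 3 (co-culture alone) and 3 to 8, and its 0 mitochondrial calls 2 (DESeq2 and replicate block). GW7647 at 0.1 µM had 0 cytosolic calls and 1 by DESeq2. On day 7, ketoconazole's 1 cytosolic call became 2 (RLE), 4 (DESeq2), 0 (no filter), 3 (replicate block), 0 (shallow library left out), 0 (covariate) and 0 to 3 without 1 plate, and phenobarbital's 3 became 6 (replicate block), 5 (covariate), 0 (co-culture alone) and 0 to 5.

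At low and middle doses, 2 cytosolic calls became 4 (RLE), 15 (DESeq2), 1 (no filter), 5 (replicate block), 0 (covariate) and 0 to 2 without 1 plate, and 3 mitochondrial calls 10 (DESeq2), 5 (replicate block), 0 (covariate) and 0 to 3. DESeq2 gave 1 cytosolic call between cultures in day 3 vehicle wells and 4 for the difference of response, against 0. For day 3 against day 1, 7 cytosolic calls became 1 (covariate) and 0 to 5, and 0 mitochondrial calls 2 (DESeq2) and 1 (no filter). For day 7 against day 1, 0 mitochondrial calls ranged from 0 to 1. For day 7 against day 3, 9 cytosolic calls became 0 (covariate) and 5 to 9, and 2 mitochondrial calls 4 (RLE), 6 (DESeq2), 0 (covariate) and 0 to 2. With 3 to 5 wells a group, changes of 1 on the log2 scale were mostly not called on simulated counts.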
